A study of Mus musculus with 20 samples.

Results

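Titin, nebulin and the other scaffold genes of the sarcomere were followed through 20 bulk RNA-seq libraries of injected mouse quadriceps. The group comprised 9 genes, Ttn, Neb, Nrap, Mybpc1, Mybpc2, Myom1, Myom2, Actn2 and Actn3, chosen by symbol, and each symbol matched 1 Ensembl ID among the 55416 genes of the deposited count table. All animals were male wild-type (WT) C57BL/6J mice aged 26 to 28 months that received a single intramuscular injection of 50 µL into the quadriceps. The 10 control mice received saline (0.9%) and the 10 secretome mice received a product secreted by pluripotent stem cells, and per the methods of the study the mice were fasted for 4 h and the injected muscle was taken 3 h later. The methods describe homogenised muscle, whereas the extraction text of the labels names myotubes. The libraries carry numbers 1 to 20, of which 1 to 10 are control and 11 to 20 are secretome.

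The sarcomere is the contractile unit of striated muscle, bounded by Z-discs and held in register at its centre by the M-band. Titin spans from the Z-disc to the M-band as a molecular spring and ruler of the thick filament, and nebulin runs along the thin filament and sets its length. Alpha-actinins crosslink thin filaments at the Z-disc, myomesins crosslink thick filaments at the M-band, myosin-binding protein C decorates the thick filament, and Nrap is a nebulin-related anchoring protein linked to myofibril assembly. Of the paralogue pairs, Actn3 and Mybpc2 are the forms typical of fast fibres, whereas Actn2 is expressed in all fibre types and Mybpc1 is the form known as slow.

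Library totals ranged from 13286983 to 22987237 counts, and the lowest count of any scaffold gene in any library was 2867 (Actn2), so that counting error was at most 1.87% of a value. The muscle identity of the tissue was checked with 8 fibre markers (Ckm, Acta1 and others), all of which were detected and which summed to at least 70546 CPM (counts scaled to a common library total of 1e6) in every library. Cardiac markers summed to a median of 0.973 CPM. The bulk libraries do not separate fewer cells of a type from less RNA per cell. In earlier work on these data the libraries had been divided into 3 ranges by their Ttn share, numbers 1 to 5 (all control), 6 to 15 (5 of each treatment) and 16 to 20 (all secretome), and these ranges were kept here. The ranges therefore describe Ttn, and differences between them are given without a test. Library range and treatment cannot be told apart outside libraries 6 to 15.

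Promoter sequence is shown for 3 scaffold genes whose counts varied in different ways. They are Ttn, whose share drew the library ranges, and Mybpc1 and Actn2, which varied most from muscle to muscle within a range. RefSeq promoter entries (mouse build GRCm38.p6) were found for 6 of the 9 genes. Each run holds the 250 bases before the annotated start, read 5′ to 3′ on the strand of the gene. Capitals mark E-boxes (CANNTG, the motif bound by myogenic regulatory factors) and the MEF2 motif, both of which read the same on either strand and did not overlap each other.
Ttn (chr2:76982548-76982797, minus strand): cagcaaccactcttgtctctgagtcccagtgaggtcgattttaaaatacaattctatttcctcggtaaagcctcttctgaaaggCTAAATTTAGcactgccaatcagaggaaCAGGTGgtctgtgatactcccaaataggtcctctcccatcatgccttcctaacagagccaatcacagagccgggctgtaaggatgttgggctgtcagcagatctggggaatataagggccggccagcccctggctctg
Mybpc1 (chr10:88605153-88605402, minus strand): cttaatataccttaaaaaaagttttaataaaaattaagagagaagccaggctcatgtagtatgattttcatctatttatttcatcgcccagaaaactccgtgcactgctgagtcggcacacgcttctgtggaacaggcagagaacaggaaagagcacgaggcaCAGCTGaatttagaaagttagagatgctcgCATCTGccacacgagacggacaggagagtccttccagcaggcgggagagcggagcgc
Actn2 (chr13:12340733-12340982, minus strand): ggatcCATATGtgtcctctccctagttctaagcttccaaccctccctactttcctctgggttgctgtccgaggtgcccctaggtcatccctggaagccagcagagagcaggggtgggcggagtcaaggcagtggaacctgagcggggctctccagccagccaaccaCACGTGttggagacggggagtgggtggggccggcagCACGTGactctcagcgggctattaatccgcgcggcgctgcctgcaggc
The Ttn run held 1 E-box, 138 bases before the start, and 1 MEF2 motif, 166 bases before the start. The Mybpc1 run held 2 E-boxes, the Actn2 run held 3, and neither held the MEF2 letters. Among 32851 RefSeq promoters of the same length, 66.2% held at least 1 E-box and 0.508% held the MEF2 motif. These matches are letters in a window, and no binding was measured here.

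Ttn was the most counted gene in all 20 libraries. Its share of all counts ranged from 7.02% to 21.1% (median 15.5%), and the 9 scaffold genes together took 9.68% to 25.6%. Neb ranked between 3 and 15 by count, with 0.834% to 2.90% of each library, and Actn3 between 10 and 22. Raw shares favour long transcripts, and the longest annotated transcript is 106824 bases for Ttn and 22489 bases for Neb against 2887 for Actn3.

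Per kilobase of exon the order was different, with Actn3 leading at 2663 ± 531 CPM per kb (mean ± SD, n = 20). Mybpc2 followed at 1576 ± 257 and Ttn at 1367 ± 466 CPM per kb, and these neighbours changed places between muscles. Mybpc2 was above Ttn in 10 of 10 libraries numbered 1 to 5 and 16 to 20 but in 3 of 10 numbered 6 to 15. The ranges were drawn by the Ttn share, so this split follows in part from how they were drawn. Neb stood at 878 ± 247 and Nrap at 320 ± 61.4 CPM per kb, each below the gene before it in 20 of 20 libraries. The last 4 genes lay within their spread of one another, at 185 ± 44.9 for Myom2, 178 ± 34.0 for Myom1, 160 ± 61.4 for Mybpc1 and 141 ± 55.1 CPM per kb for Actn2. Their order was not stable, as Myom2 exceeded Myom1 in 11 libraries, Myom1 exceeded Mybpc1 in 11 and Mybpc1 exceeded Actn2 in 13. With the longest transcript as the length, Myom1, Myom2 and Nrap took ranks 5, 6 and 7, so only the order of the first 4 genes and of the last 2 was shared by both lengths.

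**Figure D1:**
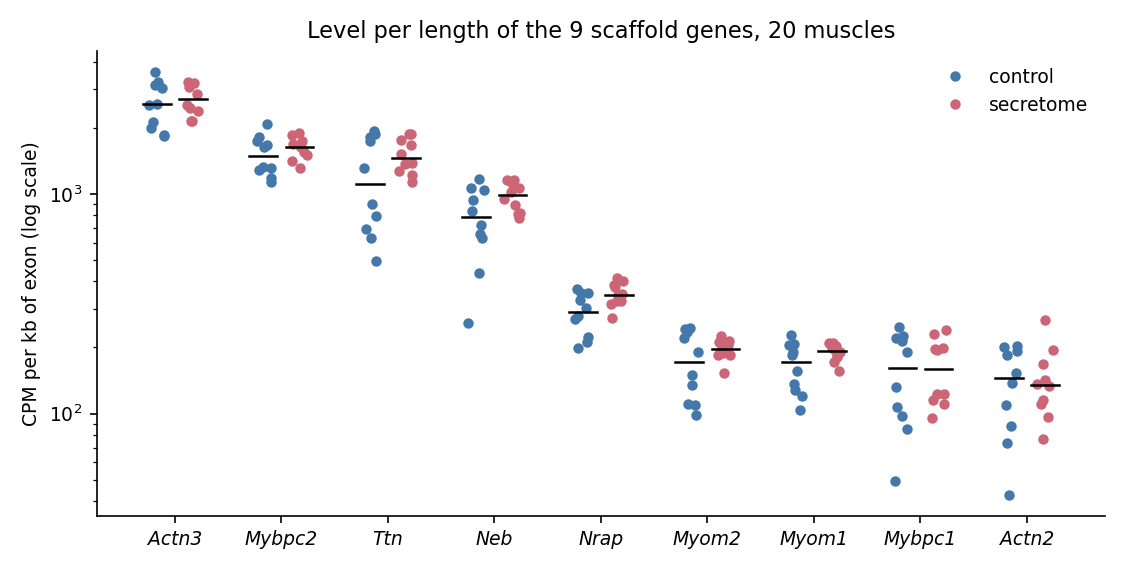
Level of each scaffold gene in CPM per kilobase of exon (log axis), 1 point per muscle, with control in blue, secretome in red and a black bar at each group median. Actn3 lies highest and Actn2, Mybpc1, Myom1 and Myom2 lie together at the lower end, and the points of the groups overlap for every gene.

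The first comparison asked whether the scaffold genes differed between secretome and control muscle. None of the 9 genes passed a 5% false discovery rate in the edgeR quasi-likelihood test over 14471 genes, of which 0.00691% passed (1 gene). All 9 fitted log2 fold changes were above 0, as were 44.1% of all genes tested, and their median was 0.17 against −0.03 over all genes. With an unadjusted p under 0.05, 1 of 9 was higher (Nrap), against 6.52% of all genes, and 0 were lower, against 9.21%. With DESeq2, 0 of 9 passed as well (1.25% of all genes). The treatment groups overlapped for every scaffold gene.

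Ttn took 7.02% to 21.1% of counts in control muscles (median 13.7%) and 14.2% to 20.7% in secretome muscles (median 16.3%). All 10 secretome muscles lay above the control median on the normalised scale, but control muscles held both the lowest and the highest value. The fitted log2 fold change was 0.30 ± 0.23 (SE, edgeR adjusted p = 0.524). Without the trend that transcripts of different length showed in each library, it was 0.17 ± 0.17.

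Neb took 0.834% to 2.77% of counts in control muscles (median 2.19%) and 1.96% to 2.90% in secretome muscles (median 2.50%). The lowest 3 values were all control, while the upper ends of the groups overlapped. The log2 fold change was 0.34 ± 0.20 (SE, edgeR adjusted p = 0.408).

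Nrap took 0.133% to 0.207% in control muscles (median 0.174%) and 0.155% to 0.207% in secretome muscles (median 0.187%). Here too the groups shared their upper end and 9 of 10 secretome muscles were above the control median. The log2 fold change of 0.28 ± 0.12 (SE) had an unadjusted edgeR p of 0.0267 and an adjusted p of 0.264.

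The M-band genes gave smaller values. Myom1 took 0.124% to 0.211% in control (median 0.181%) and 0.175% to 0.206% in secretome muscles (median 0.186%), a log2 fold change of 0.20 ± 0.13 (edgeR adjusted p = 0.455). Myom2 took 0.0994% to 0.205% in control (median 0.158%) and 0.145% to 0.184% in secretome muscles (median 0.168%), a log2 fold change of 0.17 ± 0.16 (edgeR adjusted p = 0.609). For both, the secretome values fell inside the control range. A part of Myom1 could hold reads of Myl12a, which overlaps 207 of its exon bases on the opposite strand, and whose own counts came to 3.91% of those of Myom1.

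The paralogues of the Z-disc and of the thick filament differed least between treatments. Mybpc2 had a log2 fold change of 0.10 ± 0.12, Actn3 of 0.07 ± 0.14, Actn2 of 0.05 ± 0.25 and Mybpc1 of 0.05 ± 0.26, with edgeR adjusted p between 0.704 and 0.936. Mybpc2 took 0.394% to 0.706% in control (median 0.559%) and 0.508% to 0.634% in secretome muscles (median 0.553%), and Actn3 took 0.636% to 0.995% (median 0.745%) and 0.598% to 0.918% (median 0.766%). For Actn2 only 3 of 10 secretome muscles were above the control median, although its fitted value was above 0.

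Scaling mattered for the sign of these 4 genes. Scaling factors were 1.04 to 1.21 in control libraries 1 to 5 and 0.890 to 1.07 in all others, and with plain library totals the median over all genes moved from −0.03 to −0.16. On plain totals 23.1% of all genes and 5 of the 9 scaffold genes were above 0, with Mybpc1 (−0.06), Mybpc2 (−0.02), Actn2 (−0.07) and Actn3 (−0.03) below 0. All 9 remained above the median of all genes under this scaling, where the median of the scaffold genes was 0.09.

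Within libraries 6 to 15, the range that holds both treatments, 0 of 9 scaffold genes passed (0.0% of 14469 genes tested), and with DESeq2 also 0 (0.239% of all genes). At an unadjusted edgeR p under 0.05, 1 of 9 was lower, against 4.92% of all genes, and 0 were higher. Only 3 of the 9 log2 fold changes were above 0 (47.9% of all genes were), and their median was −0.05. Ttn stood at 0.01 ± 0.13, Neb at 0.09 ± 0.15 and Nrap at 0.08 ± 0.11 (SE, n = 5 per group). Mybpc2 stood at −0.01 ± 0.14, Myom1 at −0.05 ± 0.10, Actn3 at −0.14 ± 0.13, Myom2 at −0.17 ± 0.11 and Mybpc1 at −0.33 ± 0.31. This range was drawn by the Ttn share, so nothing is read from the small difference of Ttn within it.

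Actn2 was the scaffold gene with the smallest p in this range. It took 0.0389%, 0.0655%, 0.0517%, 0.0809% and 0.0699% of counts in control muscles 6 to 10 and 0.0466%, 0.0272%, 0.0365%, 0.0414% and 0.0599% in secretome muscles 1 to 5. The groups overlapped, and no secretome muscle was above the control median on the normalised scale. The log2 fold change was −0.50 ± 0.21 (SE, unadjusted edgeR p = 0.0342, adjusted p = 0.476). Over all 20 libraries the sign was the opposite, and a term for the library ranges gave −0.52 ± 0.33 (edgeR adjusted p = 0.789).

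**Figure D2:**
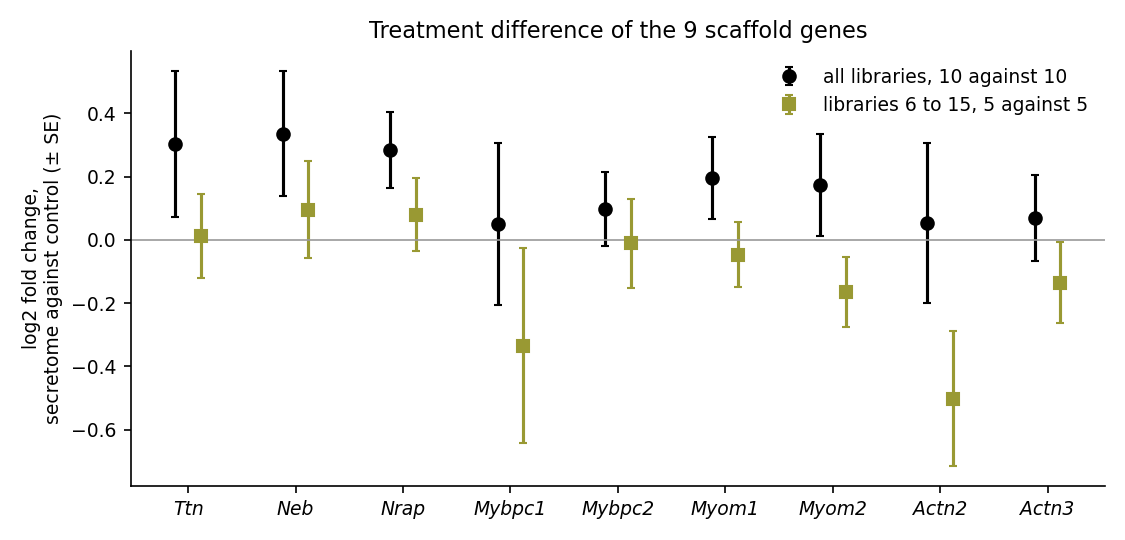
Fitted log2 fold change of each scaffold gene, secretome against control, with bars of 1 SE, for all 20 libraries (black circles) and for libraries 6 to 15 (green squares). All 9 circles lie above 0, whereas 6 of 9 squares lie below 0, with Actn2 lowest at −0.50.

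The other genes of the sarcomere were described from lists of Z-disc, M-band and thick filament, thin filament, and titin-binding or assembly genes, of which 60 of 62 were tested. None passed the false discovery rate, while 3 were higher at an unadjusted edgeR p under 0.05 (6.52% of all genes) and 0 were lower (9.21%). Their log2 fold changes were above 0 for 41 and below 0 for 19, with a median of 0.08. Over all genes tested 44.1% were above 0 and the median was −0.03. The 3 were Cfl2, a cofilin of skeletal muscle that severs actin filaments (0.35 ± 0.13, p = 0.0148), Klhl41, a nebulin-stabilising Kelch protein (0.24 ± 0.10, p = 0.0205) and Capza2, a capping protein subunit of the thin filament end (0.20 ± 0.10, p = 0.0498). Their edgeR adjusted p lay between 0.224 and 0.317.

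The remaining genes with the smallest p in their lists also did not pass. They were Des, the desmin of intermediate filaments around the Z-disc (−0.32 ± 0.16), Myh4, the fast IIb myosin heavy chain (0.35 ± 0.17), and Mybph, a relative of myosin-binding protein C (−0.32 ± 0.18). The titin-binding and assembly list was led by Smyd2, a methyltransferase that acts on titin-bound Hsp90 (0.27 ± 0.15), and by Hsp90aa1 itself (0.26 ± 0.15). Within libraries 6 to 15 the lists gave 2 higher and 3 lower at an unadjusted edgeR p under 0.05 (5.02% and 4.92% of all genes). There 40 of 60 log2 fold changes were below 0 and 20 above, while 47.9% of all genes were above 0.

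Ratios of partner genes compare counts of a single library, so that library size cancels. Actn3 exceeded Actn2 by 6.19 to 38.2 times and Mybpc2 exceeded Mybpc1 by 4.11 to 27.2 times across the 20 muscles. The fast form was therefore the more counted one in every muscle, by a factor that differed more than 6-fold from muscle to muscle. By contrast the ratio of Myom2 to Myom1 ranged only from 0.723 to 1.07, and that of Neb to Ttn from 0.116 to 0.215.

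No ratio differed between treatments beyond the spread of the muscles. The mean log2 ratio of Actn3 to Actn2 was 3.95 ± 0.74 in control and 3.93 ± 0.67 in secretome muscles (SD, n = 10 each), a difference of −0.03 (two-sided permutation p = 0.934). For Mybpc2 to Mybpc1 it was 3.09 ± 0.88 and 3.06 ± 0.51, a difference of −0.03 (permutation p = 0.938). The other pairs gave differences of 0.01 for Myom2 to Myom1 (permutation p = 0.830) and −0.01 for Neb to Ttn (permutation p = 0.952). Adjusted over the 4 ratios, every p was 0.952. Within libraries 6 to 15 the differences were 0.39 for Actn3 to Actn2, 0.35 for Mybpc2 to Mybpc1, −0.12 for Myom2 to Myom1 and 0.08 for Neb to Ttn, with exact permutation p between 0.262 and 0.452 and an adjusted p of 0.452 for each.

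**Figure D3:**
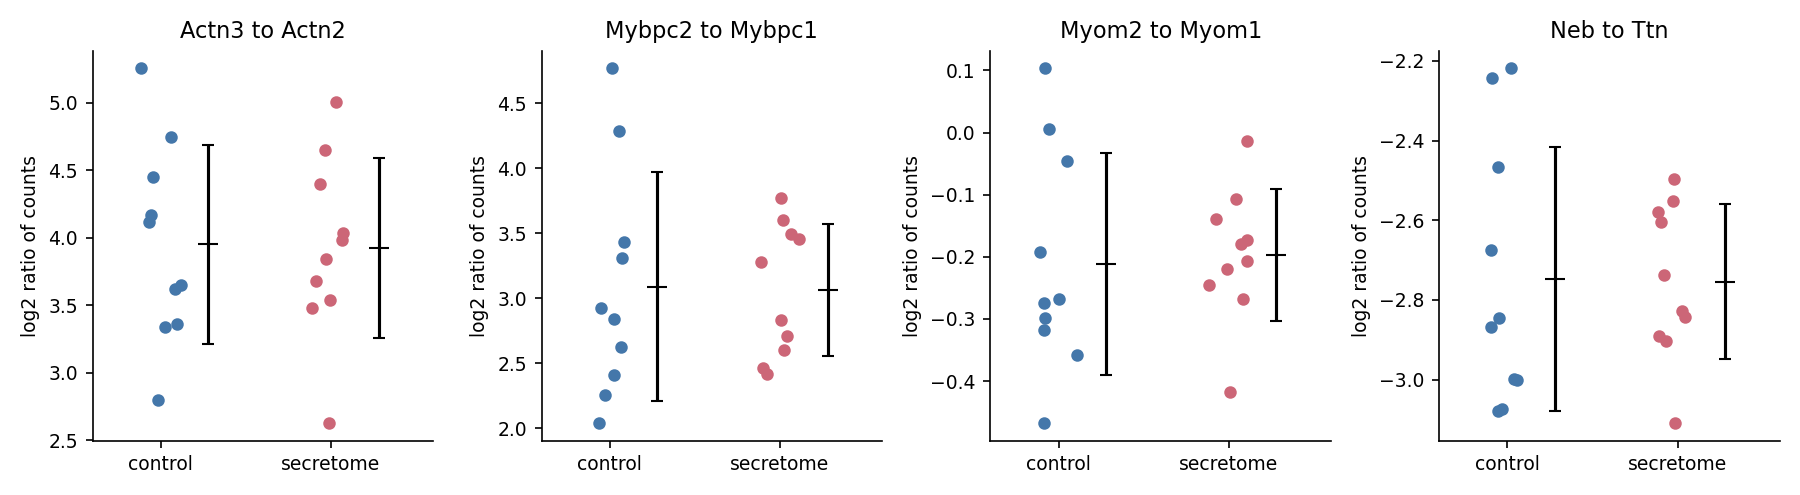
Log2 ratio of counts for 4 pairs of scaffold genes, 1 point per muscle, with the mean and SD of each treatment group beside the points and a separate vertical scale in each panel. The group means almost coincide, while single muscles spread from 6.19 to 38.2 times for Actn3 to Actn2.

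The library ranges were drawn by the Ttn share, so the difference of Ttn between them is given as a description. Among control muscles, libraries 6 to 10 were compared with libraries 1 to 5 by mean normalised log2 CPM. All 8 scaffold genes other than Ttn were higher in 6 to 10, as was Ttn, whose share drew the ranges. The log2 differences were 1.32 for Ttn, 0.93 for Myom2, 0.90 for Neb, 0.79 for Actn2, 0.76 for Mybpc1, 0.66 for Myom1, 0.58 for Actn3, 0.47 for Nrap and 0.29 for Mybpc2. Their median, with Ttn included, was 0.76, and the median over all genes tested was −0.002. Without Ttn they stood between percentile 85.3 (Mybpc2) and 99.2 (Myom2) of all genes tested. Scaling enters these values, with factors of 1.04 to 1.21 in control libraries 1 to 5 and 0.890 to 1.06 in control libraries 6 to 10. On plain shares the mean of Mybpc2, the gene with the smallest difference, was 0.556% in libraries 1 to 5 and 0.581% in 6 to 10. Of the 8 genes other than Ttn, values did not overlap between the ranges for 2, Myom1 and Myom2, against 2.07% of all genes in the same direction, and 0 lay wholly higher in libraries 1 to 5 (2.67% of all genes).

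Ttn took 11.03%, 7.02%, 8.45%, 9.57% and 10.4% of counts in control muscles 1 to 5 and 19.9%, 18.9%, 20.2%, 16.4% and 21.1% in control muscles 6 to 10. These are the values that drew the ranges. Neb took 2.33%, 0.834%, 1.32%, 2.06% and 1.88% in the first 5 and 2.35%, 2.63%, 2.77%, 2.05% and 2.65% in the next 5, so that the ranges overlapped for Neb, with control 1 as high as control 6.

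Among secretome muscles the ranges differed less. Ttn took 17.8% to 20.7% in libraries 11 to 15 and 14.2% to 14.7% in libraries 16 to 20, a log2 difference of 0.45. The Ttn share drew these ranges, so its own separation is no result. Of the other 8 genes 0 lay wholly lower in libraries 16 to 20 (1.4% of all genes did), and 0 lay wholly higher (1.34% of all genes). Neb differed by 0.19, Actn3 by 0.10, Myom1 and Myom2 by 0.08, Mybpc2 by 0.07 and Nrap by 0.01 on the log2 scale. Mybpc1 and Actn2 ran the other way, by −0.21 and −0.51. The scaffold genes therefore did not move as a block between the secretome ranges.

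**Figure D4:**
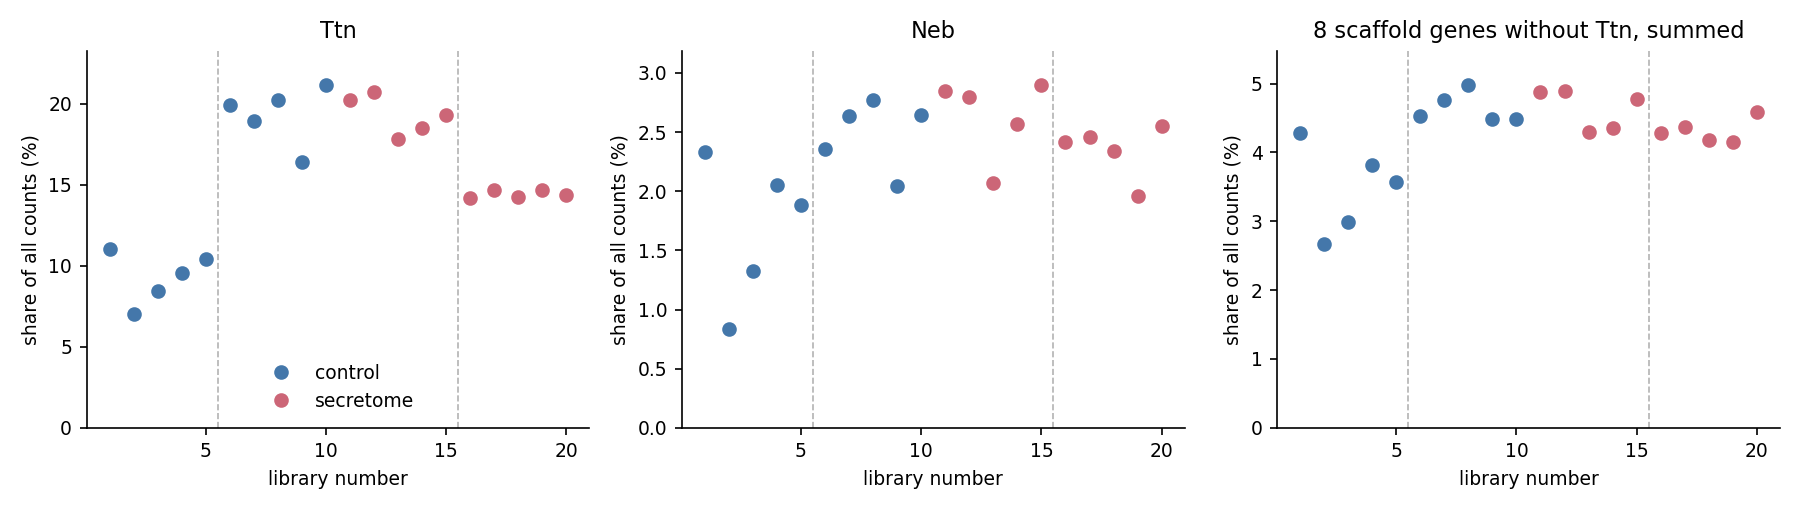
Share of all counts by library number for Ttn, Neb and the sum of the other 8 scaffold genes, with control in blue and secretome in red and dashed lines between the library ranges. Ttn forms 3 steps, at 7.02% to 11.03%, 16.4% to 21.1% and 14.2% to 14.7%, whereas Neb overlaps between ranges and the sum overlaps between libraries 16 to 20 and both other ranges, but its highest value in libraries 1 to 5 (4.28%) lies just below its lowest in libraries 6 to 15 (4.30%).

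Medians of other quantities also differed between the library ranges, and marker lists other than the following are not described here. Fibroblast markers (5 genes) summed to 719 CPM or more in control libraries 1 to 5, against medians of 269 CPM in control 6 to 10, 262 CPM in secretome 11 to 15 and 487 CPM in secretome 16 to 20. Macrophage markers (6 genes) had medians of 84.3, 49.5, 31.5 and 72.6 CPM in the same order. Their values overlapped between the ranges of each treatment (51.6 to 136 CPM in control 1 to 5 and 33.0 to 90.4 CPM in control 6 to 10). None of these markers was at 0 in any range. Genes of the mitochondrial genome took median shares of 8.66%, 4.50%, 5.32% and 6.69% of counts in that order. These shares overlapped as well (4.76% to 10.3% in control 1 to 5 and 0.977% to 5.66% in control 6 to 10). Relative to the mean of all libraries, log2 CPM changed by a median of −0.03 per doubling of transcript length in control libraries 1 to 5 and of 0.02, 0.03 and 0.02 in the others. On this measure values overlapped (−0.127 to 0.0008 in control 1 to 5 and −0.0239 to 0.0493 in control 6 to 10). With G and C content fitted beside length, the control ranges did not overlap (−0.0884 to −0.0146 in 1 to 5 and 0.0134 to 0.0389 in 6 to 10). The secretome ranges did overlap on that measure (0.00788 to 0.0408 in 11 to 15 and −0.0415 to 0.0346 in 16 to 20). The part of these quantities in the scaffold values was not tested.

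Within a range and treatment, the scaffold genes differed in how much they varied. Mybpc1 and Actn2 had the widest spread, with a log2 SD of 0.61 and 0.57 after the mean of each range and treatment was subtracted. These values stood at percentiles 97.6 and 96.6 among 1099 genes over 100 CPM, whose median was 0.24. Neb followed at 0.39, whereas Ttn (0.22), Mybpc2 (0.22), Actn3 (0.22), Nrap (0.21), Myom2 (0.18) and Myom1 (0.16) lay below the median. The spread of Ttn is limited by the ranges having been drawn on its own level.

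Covariation with Ttn was measured in libraries 6 to 15 (n = 10), because the 20 libraries fall into separate clusters of the Ttn share. On the normalised scale used for r the clusters met. There control 9 (154298 CPM) lay below secretome 9 (162057 CPM) and secretome 10 (160084 CPM). Neb, the partner giant of the thin filament, had a Pearson r of 0.89 (permutation p = 0.00233) and a Spearman rho of 0.71 (permutation p = 0.0270). Adjusted over all genes the p for r was 0.155, and 0 genes passed. Without control 9 and secretome 3, the libraries farthest from the median of Ttn and its lowest values, r fell to 0.39, so the relation rests on those libraries. The same step gave an r of 0.71 for Myom1, 0.62 for Actn3 and 0.36 for Mybpc1, and between −0.06 and 0.28 for the other 4 genes. Of the 8 relations with Ttn, 1 had an unadjusted p under 0.05, against 23.1% of all genes (11.5% with a positive r). Myom1 had an r of 0.61 (permutation p = 0.0545) and a rho of 0.65 (permutation p = 0.0494), and Myom2 an r of 0.51 (permutation p = 0.132) and a rho of 0.37 (permutation p = 0.294). With all 10 libraries the other 5 had r between −0.19 and 0.07, with permutation p of at least 0.577.

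Over all 20 libraries, with the mean of each range and treatment subtracted, the scaffold genes fell into sets that are given as a description. Ttn and Neb had an r of 0.90, Myom1 and Myom2 of 0.78, and Mybpc2 and Actn3, the fast forms, also of 0.78. In control libraries 1 to 5 both giants were lowest in control 2 (Ttn 57834 and Neb 6872 CPM) and highest in control 1 (105835 and 22356 CPM). How far the r over 20 libraries rests on such single libraries was not tested. Mybpc1 and Actn2 had an r of 0.57 with each other and of −0.52 and −0.50 with Ttn. The points of such an r share the libraries and the scaling, and base composition was one property that moved with it. Transcripts with less than 44.3% G and C had a median r of 0.36 with Ttn, and those with more than 54.0% a median of −0.37. Ttn itself has 47.4% G and C and Neb 47.0%, against 56.9% for Actn3 and 55.1% for Actn2.

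Base composition differed between libraries of one treatment. The change of log2 CPM per 10 percentage points of G and C ran from −0.19 to 0.49 over the 20 libraries and was highest in control 2 (0.49), control 9 (0.37) and secretome 9 (0.27). In each of the 4 sets of range and treatment, the library with the highest such slope was the one with the lowest Neb share (control 2, control 9, secretome 3 and secretome 9). The part of base composition in the covariation of Ttn and Neb was not tested beyond the following step. After linear trends on length and on G and C content were removed from each library, a step chosen after seeing the data, Ttn and Neb had an r of 0.73, Ttn and Myom1 of 0.62, Ttn and Myom2 of 0.62, and Myom1 and Myom2 of 0.80. The fast forms stood closer to Ttn after this step, Actn3 with an r of 0.71 in place of 0.41 and Mybpc2 with 0.57 in place of 0.26. Mybpc1 stayed at −0.50, and Actn2 stood at −0.34 in place of −0.50.

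**Figure D5:**
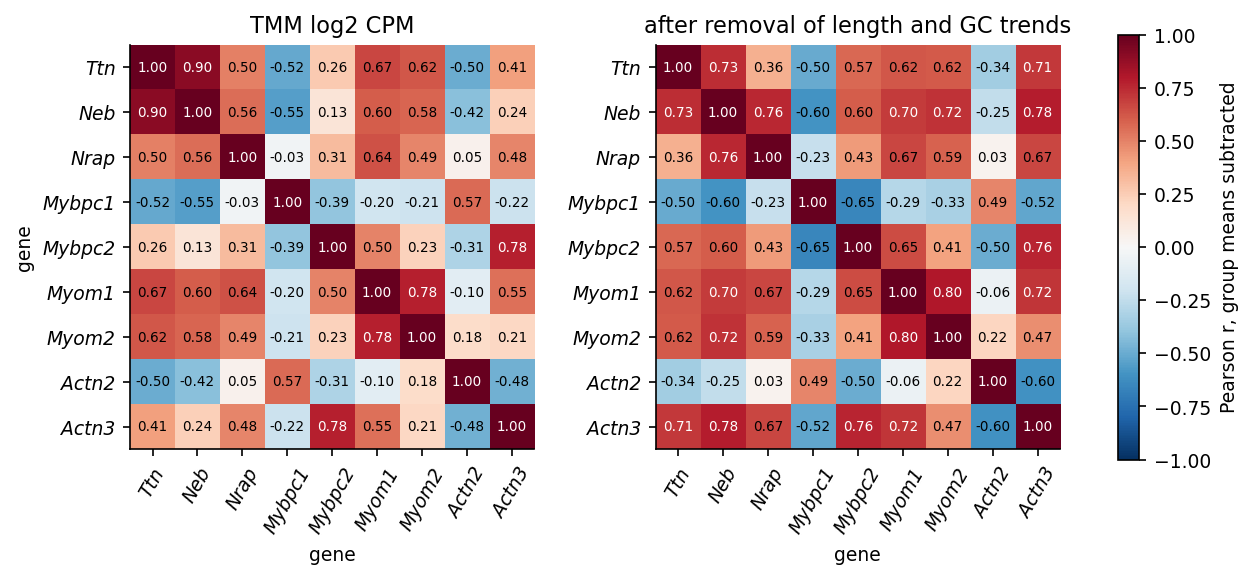
Pearson r between the 9 scaffold genes over 20 libraries after the mean of each library range and treatment was subtracted, before (left) and after (right) removal of linear trends on transcript length and G and C content. Ttn and Neb change from 0.90 to 0.73, Ttn and Actn3 from 0.41 to 0.71, and Mybpc1 and Actn2 are negative with Ttn in both panels.

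Among genes of at least 10 CPM outside the group, those whose pattern was most like that of Ttn, by the same r over 20 libraries, were Huwe1 (0.94), Hipk3 (0.93), Xpo7 (0.93), Phkb (0.93) and Eloa (0.93). None of these 5 encodes a sarcomere protein, but the list was set to stop at 5, and Cmya5 (0.92) came next. Huwe1 is a ubiquitin ligase and Phkb a subunit of phosphorylase kinase. After removal of the length and composition trends the first 5 genes stood at 0.80, 0.63, 0.82, 0.68 and 0.70.

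Among the other sarcomere genes, chosen here after their values were seen, Capn3, the calpain bound to titin, had an r of 0.89 with Ttn, Tmod4, a cap of the thin filament end, of 0.88 and Klhl41 of 0.82. The Z-disc genes Pdlim5 and Tcap, the titin cap, had r of 0.92 and −0.87 with Neb, and their transcripts hold 44.1% and 61.3% G and C. Mybpc1 and Actn2 were accompanied by another set. Fhl1, a LIM protein, had r of 0.77 and 0.81 with them, Ankrd2, a titin-associated ankyrin repeat protein known from slow fibres, of 0.84 and 0.70, Myh2, the IIa myosin heavy chain, of 0.72 and 0.70, and Myom3, a myomesin, of 0.70 and 0.71. Myh4, the IIb chain, had r of −0.55 and −0.57 with them and of 0.72 and 0.65 with Mybpc2 and Actn3. The IIa and IIb chains thus stood with opposite sets of scaffold genes, a pattern described here without a test.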

How the data were processed

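The authors deposited whole-number counts per gene for 20 libraries of total RNA from a stranded kit. The submitters' processing notes name cutadapt 1.16, STAR 2.7.9a, featureCounts 1.6.3 and the builds GRCm39 and mm39. The annotation release and the strand setting are not given in the sources used here. The members and lists were chosen with earlier results of these data known. Lengths, overlaps and G and C content came from GENCODE M21 (GRCm38).

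The main test was edgeR 4.0.16 (filterByExpr, TMM scaling, robust quasi-likelihood fit, Benjamini-Hochberg adjustment over all genes), for all libraries and for libraries 6 to 15. In simulated counts for 10 against 10, 171 of 200 genes changed 2-fold were recovered among 14313, with 9 false calls. The simulated libraries were independent and held no library ranges or trends, so recovery of smaller changes or under such ranges was not tested. Log2 CPM used a prior count of 2, and ratios and correlations used permutation tests (100000 resamples, exact for 5 against 5). Alternatives were DESeq2 1.42.0, other scalings and library sizes, no filter, a replicate block, a term for library ranges, length and composition trends, and leaving out each library. Replicate numbers did not pair the samples (r between −0.24 and 0.22, 2 of 10 over 0.1). Genes named by rule were the members, the 2 smallest p per sarcomere list and the 5 genes of a mean of at least 10 CPM most like Ttn. Further sarcomere genes were named for their r with scaffold genes after the values were seen, and so was Cmya5. Of 50-base words, 4.36% in Neb and 0.710% in Ttn recur within the transcript, and Actn2 and Actn3 share 2, so that reads there may not be assigned.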

Additional observations from a re-analysis of the deposited data

Results flagged for a closer look

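Of 26 groups of 10 muscles examined (9 scaffold genes and 4 ratios in each treatment), 1 held a value far from the others, where chance would give about 1.3. Myom2, a crosslinker of thick filaments at the M-band, stood at 10.4 log2 CPM in secretome replicate 8, with the next lowest secretome muscle at 10.7, a gap of 0.495 of the range of the group. The control muscles reached lower values of Myom2 than this.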

How the results depend on the processing

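The count of scaffold genes past the false discovery rate was 0 in every fit that was run, over all libraries and within libraries 6 to 15, and so was that of the other sarcomere genes over all libraries. DESeq2 called 216 genes over all libraries, where edgeR called 1, and 37 within libraries 6 to 15, where edgeR called 0 and had 1439 genes at an unadjusted p under 0.05, and none of these DESeq2 calls was a scaffold gene. Over all libraries and alternatives the smallest adjusted p of any scaffold gene was 0.170, for Nrap.

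Replicate numbers did not pair the muscles, and with the replicate number as a block the count was 0 as before (0 of all genes). The mean differences of the ratios cannot change with such a block, so it is no check on them. A term for library ranges turned Mybpc1 to −0.34, Mybpc2 to −0.0236, Myom1 to −0.0574, Myom2 to −0.177, Actn2 to −0.52 and Actn3 to −0.15. Treatment is then read from libraries 6 to 15 alone, so these values repeat that range and are no separate check. Plain library totals, added after seeing the data, turned Mybpc1 to −0.0601, Mybpc2 to −0.0162, Actn2 to −0.0653 and Actn3 to −0.0310. Removal of length and composition trends, also added, turned Mybpc2 to 0.11 and Actn3 to 0.0146 within libraries 6 to 15. Leaving out 1 library gave −0.0906 to 0.13 for Actn2 and −0.0548 to 0.15 for Mybpc1 over all libraries, and −0.0718 to 0.0568 for Ttn and −0.12 to 0.0734 for Mybpc2 within libraries 6 to 15. All of these are log2 fold changes that passed no test.

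The ratio differences, all near 0, changed sign within libraries 6 to 15 to 0.0767 for Neb to Ttn, 0.39 for Actn3 to Actn2, 0.35 for Mybpc2 to Mybpc1 and −0.12 for Myom2 to Myom1. As differences of medians they were 0.0744, 0.0301 and 0.18 for the first 3. Leaving out 1 muscle gave −0.0443 to 0.0513, −0.15 to 0.12, −0.14 to 0.16 and −0.0143 to 0.0491 in the same order.

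Of the relations with Ttn in libraries 6 to 15, 1 had p under 0.05, 2 when control 10, secretome 2 or secretome 5 was left out, and 3 after removal of length and composition trends. The counts ranged from 1 to 2 when any 1 library was left out. After the trends were removed Neb had an r of 0.73, Myom1 of 0.87, Actn3 of 0.68 and Mybpc2 of 0.35. On the share of counts outside Ttn, Nrap had an r of −0.15, Myom1 of 0.33, Myom2 of 0.33 and Mybpc2 of −0.44. Leaving out 1 library gave r of −0.39 to 0.25 for Actn2, −0.32 to 0.21 for Actn3, −0.29 to 0.0604 for Mybpc1, −0.29 to 0.10 for Mybpc2, −0.0438 to 0.29 for Nrap and 0.79 to 0.92 for Neb. The cause of these changes was not tested. Depth limited none of these values, with at least 2867 counts behind each.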
